A study of Homo sapiens with 2 samples.

Results

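Metallothioneins are small, cysteine-rich proteins that bind zinc, copper and cadmium, and their human genes lie side by side on chromosome 16. The genes described here are MT1A, MT1E, MT1F, MT1G, MT1H, MT1M, MT1X, MT2A and MT3 of that cluster, and MTF1, which lies on chromosome 1 and encodes the metal regulatory transcription factor. They were chosen by symbol, with levels in these libraries already known, so that their levels are given as a description. All 10 were found among the 27685 genes listed. The data comprised 1 library of H2087 cells and 1 library of H596 cells, established cell lines that both carry the label lung adenocarcinoma. Both were untreated and were grown in RPMI medium with fetal bovine serum and antibiotics, so the groups differ in the cell line alone as far as the labels say. Each line was represented by 1 library, and no value has a replicate check. The unit is FPKM (fragments mapped to a gene, scaled by transcript length and by library size), which is per length and so permits comparison between genes, and each interval covers counting error only.

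MT1 and MT2 genes are expressed in many tissues and rise when cells meet excess zinc, cadmium or glucocorticoids. Zinc binds the zinc fingers of MTF1, which then occupies short DNA elements named metal response elements in front of metallothionein genes and of SLC30A1, a zinc exporter. MT3 is known mainly from the brain and MT4 from stratified squamous epithelium. The proteins hold metals in clusters of cysteine thiols and release zinc when these are oxidized.

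The total estimated counts were 46961500 in H2087 and 55387847 in H596, and the median difference of log2(FPKM + 1), H596 minus H2087, over the 13048 genes whose mean FPKM was 1 or more was 0.12. The labelled tumor type was checked by marker genes. In H2087, 3 of 5 adenocarcinoma markers had an FPKM of at least 1, and NKX2-1, a lung lineage factor, had one of 110.0; SFTPB and SFTPC stayed below 1 in both libraries. In H596 only KRT7 of these 5 reached 1 and NKX2-1 had an FPKM of 0.508. All 5 squamous markers reached 1 in H596, against 2 of 5 in H2087. TP63 had 55.2 in H596 and 0.183 in H2087, and SOX2 had 56.5 and 39.1. KRT7 was high in both libraries, at 608 in H596 and 791 in H2087. The markers of H596 were thus mixed, with squamous markers that go against its label and a high KRT7. The 4 epithelial markers had a summed level of 6527 FPKM in H2087 and of 894 in H596. Most of the sum came from KRT8 (2493 and 536) and KRT18 (3607 and 234). EPCAM was also lower in H596 (375 and 65.0), whereas CDH1 was slightly higher there (52.3 and 59.6). Of 3 endothelial markers none reached 1, of 3 immune markers only CD68 did, with 128 in H2087 and 25.6 in H596, and PTPRC and CD3E had 0 counts in both. Of 5 fibroblast markers 1 reached 1 in each library, COL1A1 (3.89) in H2087 and DCN (9.77) in H596. The part of these markers in the metallothionein values was not tested. Each library is bulk RNA of 1 cell line, in which fewer expressing cells and less RNA per cell cannot be told apart.

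Of the 10 genes, MT2A, MT1X, MT1H and MTF1 had a promoter window in the RefSeq table used (GRCh38.p14). Shown are the 250 bases before the start of MT2A, the highest metallothionein gene in both libraries, of MT1X, the next highest in H596, and of MT1H, which had 0 counts in both. All are on the plus strand, MT2A at chr16:56608334-56608583, MT1X at chr16:56682220-56682469 and MT1H at chr16:56669564-56669813. Capitals mark matches to the core of the metal response element, TGCACNC or TGCGCNC on either strand.
MT2A: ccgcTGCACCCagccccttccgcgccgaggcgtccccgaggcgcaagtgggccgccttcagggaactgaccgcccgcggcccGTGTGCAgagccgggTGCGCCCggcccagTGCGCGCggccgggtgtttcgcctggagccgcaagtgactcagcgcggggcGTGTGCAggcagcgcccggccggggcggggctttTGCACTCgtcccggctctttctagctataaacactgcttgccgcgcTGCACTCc
MT1X: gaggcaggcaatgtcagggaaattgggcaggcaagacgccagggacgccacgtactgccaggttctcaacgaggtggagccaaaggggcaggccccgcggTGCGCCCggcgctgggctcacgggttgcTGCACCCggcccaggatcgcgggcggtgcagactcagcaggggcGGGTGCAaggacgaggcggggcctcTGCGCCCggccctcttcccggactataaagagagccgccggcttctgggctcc
MT1H: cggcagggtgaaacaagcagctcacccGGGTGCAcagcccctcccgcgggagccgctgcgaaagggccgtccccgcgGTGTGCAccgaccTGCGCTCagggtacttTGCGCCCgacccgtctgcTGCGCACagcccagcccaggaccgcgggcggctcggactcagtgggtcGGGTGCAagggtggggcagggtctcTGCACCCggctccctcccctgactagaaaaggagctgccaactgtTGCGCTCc

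The MT2A window held 7 matches, that of MT1X 4 and that of MT1H 8, and none of these overlapped each other. Of all 35116 promoter windows of this length, 24.8% held at least 1 match, 0.370% at least 4, 0.0313% at least 7 and 0.0171% at least 8. Counted from the start, MT1X and MT1H both had a match that began at -78 and another at -53, and MT2A and MT1H both had a match that began at -8. MT1H, with 0 counts in both libraries, thus had more matches than MT2A, the most abundant member. The letters TATAAA stood on the gene strand in the windows of MT2A and MT1X and not in that of MT1H, and in 6.80% of all windows. CpG dinucleotides numbered 32 in MT2A, 22 in MT1X and 22 in MT1H, where the median window had 11. The windows of the neighbouring genes MT1B and MT4, which had 0 counts in both libraries, held 3 matches each, 7 and 6 CpG dinucleotides, and TATAAA. The window of MTF1 held no match. A match is a description of the letters, and binding was not measured here.

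**Figure D1:**
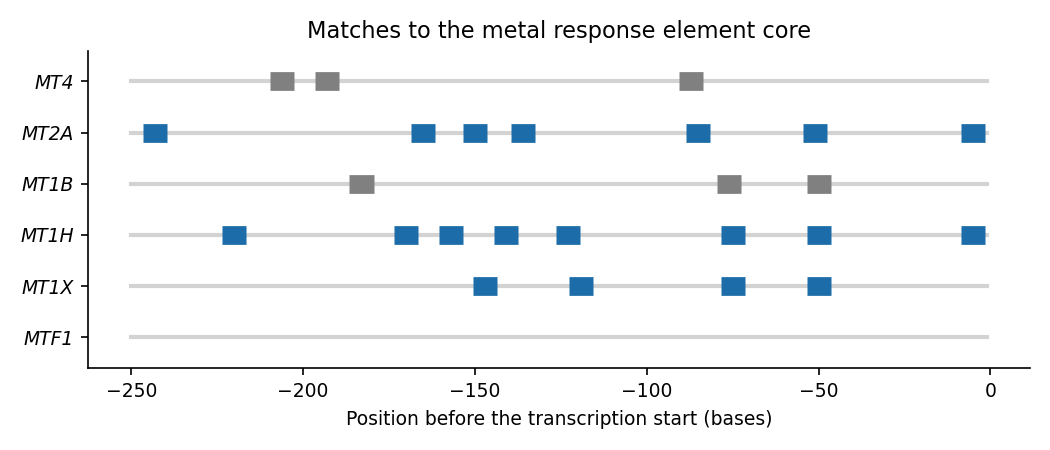
Positions of matches to the metal response element core (blocks of 7 bases; members blue, MT4 and MT1B grey) in the 250 bases before the transcription start, in bases on the x axis, for the metallothionein genes with a RefSeq window and MTF1. MT1H has 8 blocks, MT2A 7, MT1X 4, and MTF1 none.

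MT2A (gene 4502) encodes the most widely expressed metallothionein and occupies 56642478 to 56643409 on chromosome 16 of hg19. Its FPKM was 1124 (95% interval, 1110 to 1139) from 22581 counts in H2087 and 215 (95% interval, 209 to 221) from 5119 counts in H596. H2087 was thus the higher library, by 5.22-fold (95% interval, 5.07 to 5.38), and the counting intervals did not overlap. The gene ranked 56 among all listed genes in H2087 and 243 in H596.

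MT1E (gene 4493), an MT1 isoform gene at 56659585 to 56661024, had an FPKM of 349.9 (95% interval, 342 to 357) from 8485 counts in H2087, where it ranked 168. In H596 it had 0 counts. The limit of 3 counts would be an FPKM of 0.104 in H596, so the level in H2087 was at least 3350-fold higher. Only 3 of the 704 genes that reached an FPKM of 100 in H2087 had 0 counts in H596, and MT1E was among them.

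MT1A (gene 4489), another MT1 isoform gene at 56672578 to 56673999, showed the same split at a lower level. Its FPKM was 47.0 (95% interval, 43.98 to 50.1) from 892 counts in H2087, against 0 counts in H596, and it was at least 352-fold higher in H2087. MT1M (gene 4499), at 56666534 to 56667898, had 34 counts and an FPKM of 1.61 (95% interval, 1.15 to 2.25) in H2087 and 0 counts in H596. It was at least 13.4-fold higher in H2087, and its mean FPKM lay below the minimum of 1 for a call. MT1E and MT1A reached that minimum through H2087 alone, so their calls were fixed by the filter.

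MT1X (gene 4501), at 56716382 to 56718108, was the member of the cluster with the smallest difference among those detected. Its FPKM was 61.5 (95% interval, 58.2 to 65.1) from 1192 counts in H2087 and 37.6 (95% interval, 35.2 to 40.2) from 863 counts in H596. H2087 was 1.64-fold higher (95% interval, 1.498 to 1.79), which is beyond counting error and below the 2-fold size used for calls. MT1F (gene 4494), at 56691855 to 56693215, had an FPKM of 13.6 (95% interval, 12.1 to 15.2) from 292 counts in H2087 and 3.82 (95% interval, 3.14 to 4.66) from 98 counts in H596, and was 3.55-fold higher in H2087 (95% interval, 2.82 to 4.52). Of its 2 listed transcripts, variant 1 held 84.5% of the gene's FPKM in H2087 and 78.2% in H596. The other members of the cluster with transcripts above 0 had a single listed transcript each.

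MT1G (gene 4495), MT1H (gene 4496) and MT3 (gene 4504) had 0 counts in both libraries. The limit of 3 counts would be an FPKM of 0.155 for MT1G, 0.158 for MT1H and 0.108 for MT3 in H2087, and of 0.130, 0.133 and 0.0908 in H596. They were not detectable at this depth, and no fold is given. Of all listed genes, 30.4% had 0 counts in both libraries, against 3 of the 10 genes here. A list of 10 genes that every cell uses, such as ACTB and GAPDH, had none at 0 counts in either library.

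MTF1 (gene 4520), at 38275239 to 38325292 on chromosome 1, is the factor that drives metallothionein transcription on metal exposure. Its FPKM was 3.75 (95% interval, 3.56 to 3.95) from 1432 counts in H2087 and 4.31 (95% interval, 4.12 to 4.51) from 1951 counts in H596. It was 1.15-fold higher in H596 (95% interval, 1.07 to 1.23). On the log2(FPKM + 1) scale the difference was 0.16, close to the median difference of all genes tested, 0.12. Unlike the detected metallothionein genes, MTF1 was thus not lower in H596.

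**Figure D2:**
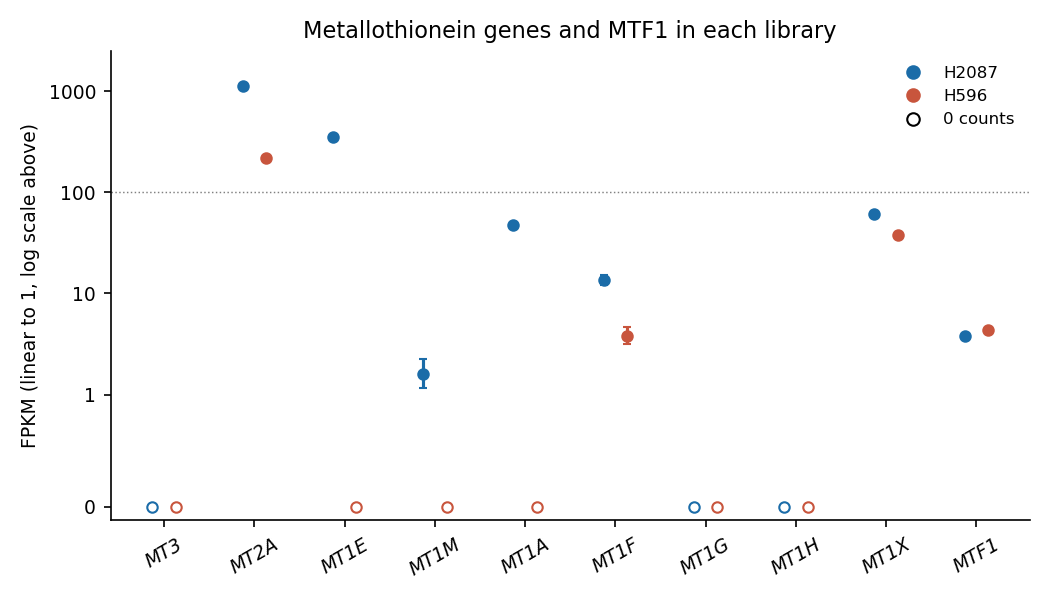
FPKM of the 10 genes in each library (y axis linear up to 1 and logarithmic above; cluster genes in chromosome order, then MTF1). Filled points are values with their 95% Wilson intervals, open points are 0 counts, and the dotted line marks an FPKM of 100. MT2A is at 1124 in H2087 and 215 in H596, MT1E, MT1M and MT1A are at 0 in H596, and MTF1 is near 4 in both.

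In H2087 the order of levels was MT2A, MT1E, MT1X, MT1A, MT1F, MTF1 and MT1M, and no 2 neighbours in that order had overlapping intervals. In H596 the order was MT2A, MT1X, MTF1 and MT1F, and the intervals of MTF1 and MT1F overlapped. Within H2087, MT2A was 3.21 times as high as MT1E and 18.3 times as high as MT1X, and in H596 it was 5.72 times as high as MT1X. At the FPKM threshold of 100 that the study used for highly expressed genes, MT2A and MT1E passed in H2087, 2 of 10 genes against 2.54% of all listed genes. In TPM, 4 of 10 reached 100 in H2087, against 5.93% of all listed genes. MT2A alone passed the FPKM threshold in H596, 1 of 10 against 2.3%. The paper describes this selection with H2087 cells alone. Of the 7 members that reached an FPKM of 1 in H2087, 3 had 0 counts in H596, against 2.24% of the 12534 genes at this level.

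Among the 6 members whose mean FPKM was 1 or more, 4 were at least 2-fold lower in H596, and 0 were at least 2-fold higher. Of the 13048 genes tested, 14.2% were lower by this size and 18.2% higher. The balance of these shares depends on the scaling, with 16.2% lower and 15.6% higher under TMM scaling (trimmed mean of M-values), 16.2% and 15.7% after centring on the median difference, and 13.9% and 24.8% in TPM (FPKM rescaled to the same sum in each library). The 4 were MT1A, MT1E, MT1F and MT2A, with differences of -5.58, -8.45, -1.60 and -2.38 on the log2(FPKM + 1) scale. MT1A and MT1E passed the filter through H2087 alone, so their calls were fixed by it. The calls of MT1F and MT2A were not. The remaining 2, MT1X at -0.70 and MTF1 at 0.16, lay within 2-fold. The members were chosen with this contrast known, so these counts are a description.

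The FPKM summed over the 9 metallothionein members was 1598 in H2087 and 257 in H596, 6.22-fold higher in H2087 (95% interval, 6.06 to 6.40). They held 0.0713% of the counts in H2087 (95% interval, 0.0705 to 0.0721) and 0.0110% in H596 (95% interval, 0.0107 to 0.0113). The MT1 members alone summed to 474 and 41.4, an 11.4-fold difference (95% interval, 10.7 to 12.2), larger than that of MT2A. MT1E decides this order: without it, a sum chosen after the values were seen, the MT1 members had 124 and 41.4, a 2.99-fold difference (95% interval, 2.77 to 3.22), smaller than that of MT2A. The make-up of the family thus differed as well as its level. MT2A made up 70.4% of the sum in H2087 and 83.9% in H596. MT1E held 21.9% in H2087 and 0 in H596, and the share of MT1X was 3.85% in H2087 and 14.7% in H596. MT1A and MT1F held 2.94% and 0.851% in H2087, and MT1F held 1.49% in H596.

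**Figure D3:**
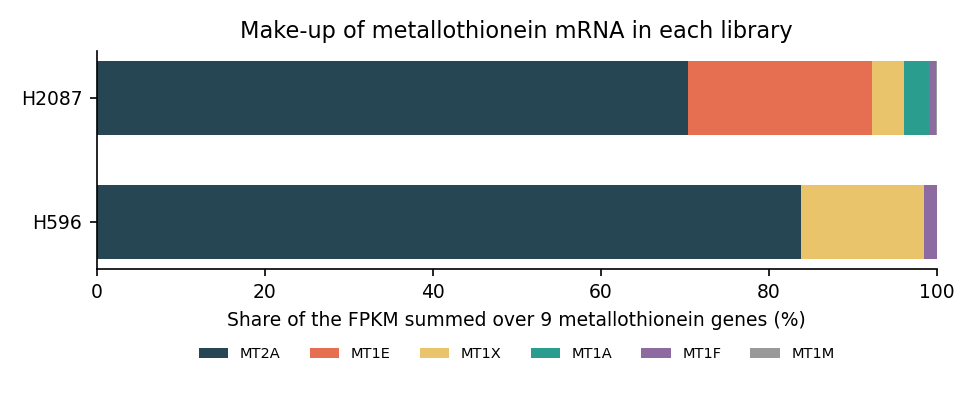
Share of each member in the FPKM summed over the 9 metallothionein genes, in percent, with 1 bar per library. MT2A fills most of both bars (70.4% in H2087, 83.9% in H596), the MT1E share of 21.9% appears in H2087 alone, and the MT1X share is larger in H596.

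The tables listed 15 metallothionein genes and pseudogenes along chromosome 16 and MT1HL1 on chromosome 1. From MT3 to MT1X the cluster covers 94.8 kb. Of the 7 listed family genes that are not members, MT1L and MT1DP, both annotated as pseudogenes, were above 0 in H2087 alone. MT1L had 693 counts and an FPKM of 33.9 (95% interval, 31.5 to 36.5) in H2087, at least 273-fold above H596, where it had 0 counts. MT1DP had 19 counts and an FPKM of 1.02 in H2087 and 0 counts in H596. MT4, MT1JP, MT1B, MT1IP and MT1HL1 had 0 counts in both libraries.

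In chromosome order, the genes at 0 in H596 but not in H2087 formed a block, a pattern noticed after the values were seen. From 56651373, the start of MT1L, to 56678853, the end of MT1DP, 27.5 kb hold the 6 listed genes MT1L, MT1E, MT1M, MT1JP, MT1A and MT1DP. All 6 had 0 counts in H596, and all but MT1JP were above 0 in H2087. The levels of MT1L and MT1DP are less certain, because part of their listed transcripts was not compared with other genes. MT1L and MT1M also shared 11.7% and 14.6% of their 50-base windows with genes at other places. The 3 genes above 0 in both libraries lie outside this block, MT2A before it and MT1F and MT1X after it. MT4, MT3, MT1B, MT1G, MT1H and MT1IP also lie outside it and had 0 counts in both libraries. A count of 0 in H596 is thus not particular to the block. Within H2087 the levels did not follow the order, since MT1M, with an FPKM of 1.61, lies between MT1E (349.9) and MT1A (47.0).

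**Figure D4:**
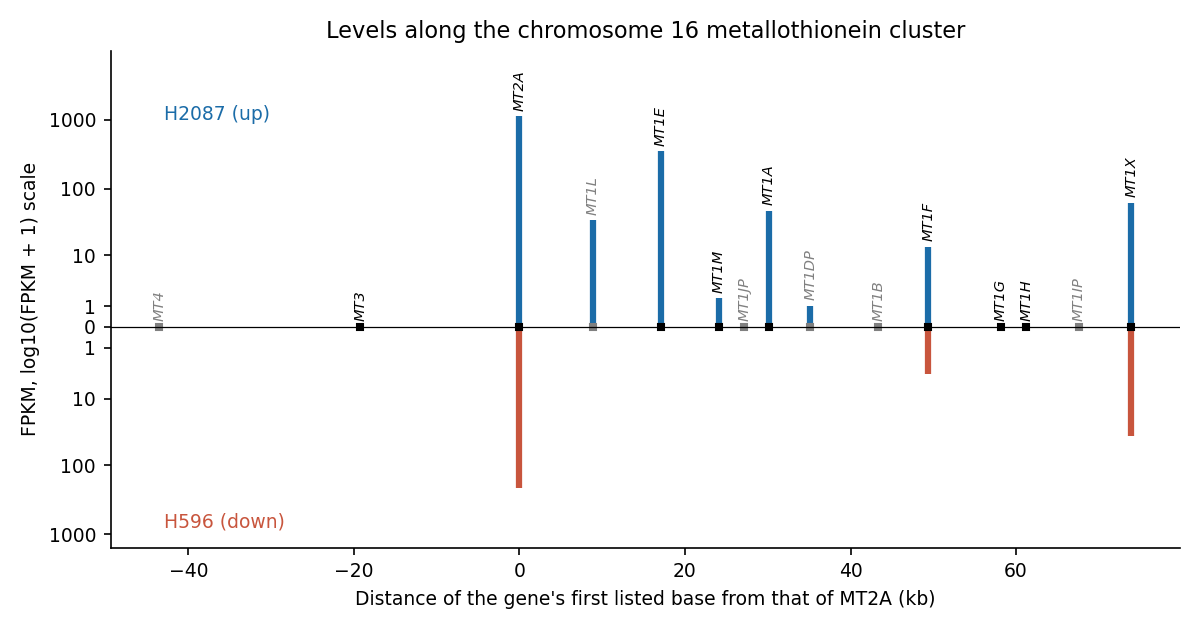
FPKM of the 15 metallothionein genes and pseudogenes of chromosome 16, on a log10(FPKM + 1) axis, with H2087 upward and H596 downward, by distance in kb from the first base of MT2A (members black, others grey). The H596 side has bars at MT2A, MT1F and MT1X alone, while H2087 also has them at MT1L, MT1E, MT1M, MT1A and MT1DP.

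Metallothionein transcripts resemble each other, and how the authors divided reads between such copies is not stated. In the reference transcripts, the share of 50-base windows found letter for letter in another gene was 1.77% for MT1E, 5.76% for MT1A, 6.12% for MT1F, 10.6% for MT2A and 14.6% for MT1M. It was 20.2% for MT1G, 20.4% for MT1H and 0 for MT3. For MT1X it was 50.99%, and 117 of its 355 windows were shared with a noncoding RNA gene annotated over the same place. With 100-base windows, MT1A, MT1E, MT1F, MT1G, MT1M, MT2A and MT3 shared none, MT1H shared 3.36% and MT1X 22.0%. Leaving out genes that overlap MT1X, it shared 18.0% of its 50-base windows and 0 of its 100-base windows. For the pseudogenes MT1L and MT1DP every window of both lengths was found in another gene, in each case a noncoding RNA gene annotated over the same place. Leaving out genes that overlap them, 11.7% of the 50-base windows of MT1L and 0 of those of MT1DP were shared. Their reference transcripts, of 186 and 150 bases, were shorter than the 426 and 503 bases listed in the deposited tables, so that the rest was not compared. MT1E, MT1F and MT1M were also compared over shorter reference transcripts, of 332, 425 and 398 bases, where the longest listed ones had 506, 483 and 440. Their shares thus leave part of the listed transcript uncompared, most of all for MT1E. Because of windows shared with genes at other places, the levels of MT1X, MT1G, MT1H, MT1M and MT1L are less certain than their counting intervals. Those of MT1L and MT1DP are also less certain because of the part not compared. Reads with mismatches were not considered. The metallothionein members are also short, with longest listed transcripts between 396 and 582 bases, where the median of the genes tested was 3036.

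Genes outside the family lie on both sides of the cluster. Within 1 Mb, 36 other genes were listed, of which 21 had a mean FPKM of at least 1. Of these, 4 were at least 2-fold lower in H596 and 1 was higher, beside 14.2% and 18.2% of all genes tested, and the median difference was -0.45 beside 0.12. The nearest gene before the cluster, BBS2, a component of the ciliary BBSome, measured 20.3 FPKM in H2087 and 11.96 in H596, a difference of -0.72. The nearest gene after it, NUP93, which encodes a nuclear pore protein and starts 45.9 kb from the end of MT1X, had 42.1 and 13.6, a difference of -1.56. The other 3 lower genes were NUDT21, an mRNA cleavage factor subunit (43.9 and 19.3), NLRC5, a regulator of MHC class I genes (18.6 and 1.32), and CX3CL1, a chemokine (7.95 and 0). The higher gene was GNAO1, a G protein subunit, with 0.186 in H2087 and 2.66 in H596. CX3CL1 reached the minimum mean FPKM through H2087 alone and GNAO1 through H596 alone, so their calls were fixed by the filter. On the log2(FPKM + 1) scale no neighbour tested differed as much as MT1E, MT1A or MT1L, and the lowest difference among them was -3.16, in CX3CL1. On this scale a gene at 0 counts in H596 is placed by its level in H2087 alone. By its counts CX3CL1, with 1266 in H2087 and 0 in H596, was at least 499-fold higher in H2087, a bound above those of MT1A and MT1L. DNA copy number was not measured here.

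**Figure D5:**
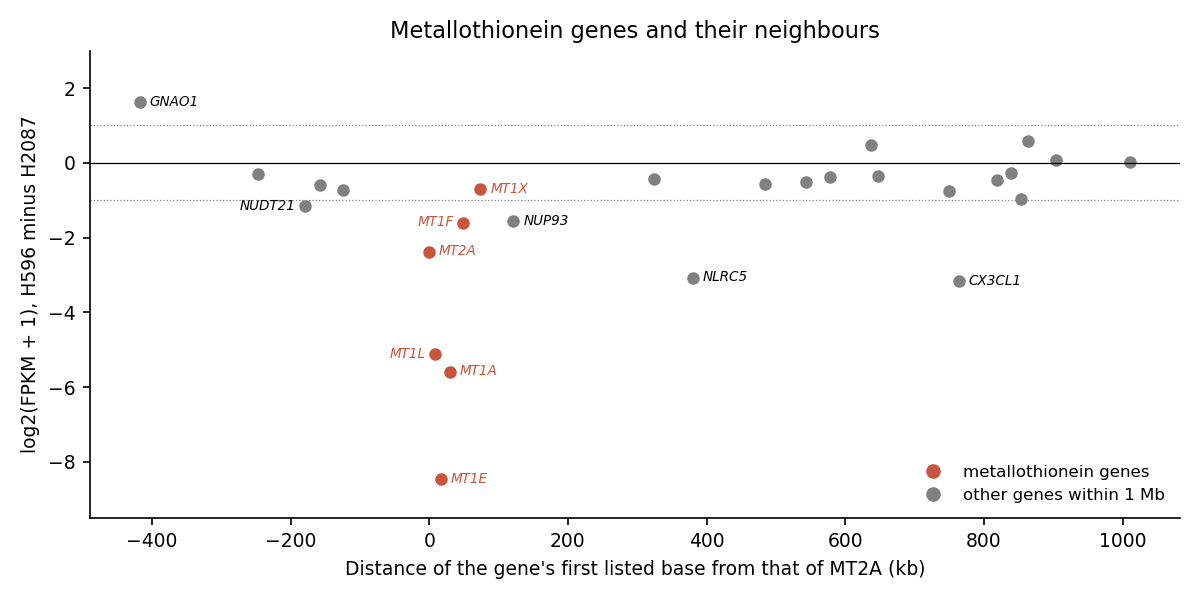
Difference of log2(FPKM + 1), H596 minus H2087, against the distance in kb from the first base of MT2A, for metallothionein genes (red) and other genes within 1 Mb (grey) whose mean FPKM was 1 or more. Names are given for metallothionein genes and for neighbours past the dotted lines at 2-fold. MT1E lies lowest at -8.45, while the lowest neighbour on this scale is CX3CL1 at -3.16.

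Other genes of zinc and copper handling were examined as a list of 24 zinc transporters and 11 copper genes, of which 26 had a mean FPKM of at least 1. Of these 26, 2 were at least 2-fold lower and 3 higher in H596, beside 14.2% and 18.2% of all genes tested, and the median difference was 0.05 beside 0.12. These counts depend on the scaling, with 4 lower and 3 higher after centring, and 3 lower and 7 higher in TPM. SLC30A1, the zinc exporter that MTF1 also controls, had an FPKM of 6.28 (95% interval, 5.80 to 6.80) in H2087 and 8.75 (95% interval, 8.23 to 9.31) in H596. It was 1.39-fold higher in H596, the direction opposite to that of the detected metallothionein genes. The lower genes were SLC39A8, a zinc and manganese importer, with 8.16 in H2087 and 2.10 in H596, and ATOX1, a copper chaperone, with 96.5 and 22.7. The higher genes were SLC39A6, a zinc importer, with 9.90 and 33.8, SLC39A7, which releases zinc from the endoplasmic reticulum, with 52.3 and 133, and SLC31A2, a copper transporter, with 1.09 and 7.76. The 5 tested members of the SLC30A export family all lay within 2-fold, with differences between -0.28 and 0.42. Below the minimum mean FPKM, SLC30A4 had 16 counts in H2087 and 489 in H596, 13.9-fold higher in H596 (95% interval, 8.45 to 24.4). SLC30A3, also below it, had 113 and 32 counts and was 4.42-fold higher in H2087 (95% interval, 2.96 to 6.76).

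Factors known to act at metallothionein promoters had the following levels. NR3C1, the glucocorticoid receptor, measured 16.1 FPKM in H2087 and 9.99 in H596, 1.61-fold higher in H2087. SP1, a general promoter factor, had 14.5 and 16.5. USF1, which binds E-box elements, had 22.8 and 48.1, 2.11-fold higher in H596. EP300, a histone acetyltransferase, had 8.37 and 16.6, 1.98-fold higher in H596. NR3C1 was the only factor of the 4 to be lower in H596, and its difference was below 2-fold.

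The genes most like MT1E in the pair of log2(FPKM + 1) values of the 2 libraries were GSTP1, a glutathione transferase, GALNT6, a glycosylation enzyme, and CHI3L1, a secreted glycoprotein, at distances of 0.309, 0.972 and 1.31. GSTP1 measured 434 FPKM in H2087 and 0 counts in H596, CHI3L1 141 and 0 counts, and GALNT6 214 and 0.591. Those most like MT2A were MIF (838 and 193), a cytokine, BTF3 (805 and 280.2), a translation-associated factor, and COX7C (723 and 226), a subunit of cytochrome c oxidase, at distances of 0.452, 0.612 and 0.640. With 2 libraries such likeness rests on 2 values per gene.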

How the data were processed

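Total RNA of H2087 and H596 cells was made into stranded mRNA libraries and sequenced on an Illumina HiSeq4000, with 1 library per cell line. The authors aligned the reads to hg19 with HISAT2 2.0.5 and estimated abundances with StringTie 1.3.3b; bcl2fastq 1.8.4 and Trimmomatic are also named in the submitters' processing notes. Read length and pairing are not given in the sources used here. The authors deposited estimated counts, which are whole numbers, and FPKM values, scaled by transcript length and library size, for 27685 genes and 63714 transcripts.

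The 10 genes were found by their symbols. The members and gene lists were chosen with earlier results of these data known. Differences are log2(FPKM + 1), H596 minus H2087, which understates changes of low genes. A difference of at least 2-fold on this scale was counted among genes whose mean FPKM was 1 or more. With 1 library per cell line no test was possible. Intervals of FPKM are 95% Wilson intervals of the share of the total count. Intervals of a ratio are 95% Clopper-Pearson intervals. Both cover counting error only, and reads without molecular identifiers are not independent molecules. For a count of 0, the limit is 3 counts, converted to FPKM by the transcript length and the ratio found for the single-transcript members with at least 30 counts. Totals of 46961500 and 55387847 counts set the precision.

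The genes named are the members, the other listed metallothionein genes, those of the metal list past 2-fold and SLC30A1, the nearest neighbours and those past 2-fold, 4 regulators, and the 3 genes nearest to MT1E and MT2A in the pair of log2 values. Promoter windows are from RefSeq (GRCh38.p14) and matched 4 of the 10 members by symbol; expression positions are hg19, and none were converted. Sequence sharing was counted in GENCODE transcripts (release 44 placed on GRCh37). Alternatives were another pseudocount, other filters, TPM, centring, TMM scaling (edgeR 4.0.16 in R 4.3.3), single transcripts, other thresholds and, added after seeing the data, the MT1 sum without MT1E. The calls and intervals were run on simulated counts with counting error alone. That check of the code did not cover reads shared between copies or variation between libraries. Python 3.11.15, numpy 2.4.6, pandas 2.3.3, scipy 1.17.1 and matplotlib 3.10.9 were used.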

Additional observations from a re-analysis of the deposited data

How the results depend on the processing

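Of 99 recomputed values, 34 counts of genes stayed within 1.5 times the reported count and 10 did not. The summed difference stayed within its counting interval in 2 and left it in 5, single genes stayed within theirs in 32 and left it in 15, and no direction was reversed. Part of this was fixed in advance. The 32 include the values of MT1G, MT1H and MT3, which had 0 counts in both libraries and could not move. They also include genes with a single listed transcript under the single-transcript setting, which cannot change their value. The direction of genes at 0 counts in H596 alone could not be reversed. The sum of the MT1 members without MT1E, added after seeing the data, moved from -3.48 to -1.56. The number of members at least 2-fold lower in H596 stayed within 1.5 times of 4 under all 8 alternatives, and 0 were higher under each. The log2 difference of the summed metallothionein FPKM, -2.63, was -2.76 with TMM scaling, -2.45 with TPM, -2.75 with centring, -3.48 without MT2A and -2.28 without MT1E. With TPM, 4 in place of 2 members reached 100 in H2087. MT2A ranged from -2.51 to -2.20 and MT1X from -0.82 to -0.52, while MT1E reached -11.77 with a pseudocount of 0.1; the value of a gene at 0 counts depends on the pseudocount by construction. MTF1 ranged from 0.04 to 0.35. Of zinc and copper genes, 2 were lower and 3 higher; 1 was lower with a mean FPKM of at least 10, 4 with centring and 1 with a fold of 4, and 7 were higher with TPM and 1 with a fold of 4. Of neighbours, 4 were lower and 1 higher; 2 and 0 passed with a mean FPKM of at least 10, and 2 and 0 with a fold of 4, since fewer genes can pass. The other causes were not tested. No paired analysis was possible because the cell lines have a single library apiece, and so none could be left out. Depth limits MT1M and the genes at 0 counts.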
